A study of Homo sapiens with 12 samples.

Results

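The 10 genes described here are EGR1 and EGR3, NR4A1, NR4A2 and NR4A3, IER2 and IER3, MYC, and the transcription factor genes SRF and ELK1, which belong to the immediate early response to serum or control it. They were chosen by name, and each was read from the array feature that carried its symbol alone or, where several features did, from the one with the highest mean over the 12 arrays. All 10 were found among the 18417 genes with such a feature. IER3 alone had more than 1 feature, and the other two of its features held identical values.

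Calu-6, a human lung cancer cell line, was transfected with a pool of siRNAs against LAPTM4B, a transmembrane protein of late endosomes and lysosomes (siLAPTM4B), or with scrambled siRNA (siControl). The cells were then serum-starved (0% FBS) or kept in medium with 10% FBS, and total RNA was collected 72 h after transfection, once the cells had spent 48 h in the new medium. The 4 groups, siLAPTM4B 0% FBS, siControl 0% FBS, siLAPTM4B 10% FBS and siControl 10% FBS, held 3 replicates each. The labels number the replicates and do not say whether they were separate transfections. All groups were transfected, there was 1 siRNA pool against LAPTM4B, and every array comes from 1 cell line, so that neither the untransfected state nor a second siRNA is represented. The signals are log2 values from robust multichip averaging (RMA), for which the number of arrays limits the precision, and signals of different genes are not set against each other.

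Immediate early genes are transcribed soon after a growth factor signal, before new protein is made. ERK kinases phosphorylate ELK1, an ETS-family factor that sits beside SRF at serum response elements, whose core is the CArG box, and EGR1 and FOS are the classic genes under such elements. EGR proteins are zinc finger factors that bind GC-rich sites and are held back by the corepressors NAB1 and NAB2, NR4A proteins are orphan nuclear receptors whose genes also answer to CREB at cAMP response elements (CRE), IER2 and IER3 encode small nuclear and stress-protective proteins, and MYC is a growth regulator with short-lived mRNA and protein. The arrays were taken after 48 h in each medium and hold sustained levels, not the first response to serum.

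RefSeq promoter windows (build GRCh38.p14), which run from 250 bases ahead of a transcript start to 50 bases past it, were given for 6 of the 10 genes, EGR1, NR4A1, NR4A3, IER2, SRF and ELK1. The 250 bases ahead of the start are printed for EGR1 and SRF, which share the CArG boxes, for NR4A3, which holds the most CRE cores, and for IER2, which was among those of the 10 with the widest spread between groups. All 4 lie on the plus strand, EGR1 at chr5:138465229-138465478, SRF at chr6:43171019-43171268, NR4A3 at chr9:99821635-99821884 and IER2 at chr19:13150161-13150410. Capitals mark matches, on either strand, to the CArG box, to the CRE core TGACG, to the EGR site GCGNGGGCG and to the ETS core CCGGAA.
EGR1: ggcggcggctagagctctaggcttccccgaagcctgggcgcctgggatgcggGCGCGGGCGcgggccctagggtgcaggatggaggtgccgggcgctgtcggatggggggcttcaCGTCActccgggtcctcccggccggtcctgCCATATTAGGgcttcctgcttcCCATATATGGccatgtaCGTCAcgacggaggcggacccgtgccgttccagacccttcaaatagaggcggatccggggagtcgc
SRF: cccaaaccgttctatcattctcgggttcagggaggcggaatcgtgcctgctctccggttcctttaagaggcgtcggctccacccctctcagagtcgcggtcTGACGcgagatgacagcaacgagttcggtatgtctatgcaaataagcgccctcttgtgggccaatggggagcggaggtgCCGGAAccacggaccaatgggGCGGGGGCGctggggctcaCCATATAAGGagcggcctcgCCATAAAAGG
NR4A3: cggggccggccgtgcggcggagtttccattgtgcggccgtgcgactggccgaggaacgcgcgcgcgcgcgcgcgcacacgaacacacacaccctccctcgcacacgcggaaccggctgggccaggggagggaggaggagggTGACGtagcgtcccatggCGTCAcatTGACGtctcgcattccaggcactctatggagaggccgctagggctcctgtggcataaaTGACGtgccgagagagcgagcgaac
IER2: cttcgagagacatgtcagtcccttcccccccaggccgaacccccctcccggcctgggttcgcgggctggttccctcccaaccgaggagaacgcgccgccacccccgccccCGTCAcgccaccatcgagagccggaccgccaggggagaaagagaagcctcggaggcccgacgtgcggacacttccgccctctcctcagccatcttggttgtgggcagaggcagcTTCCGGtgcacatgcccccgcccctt

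EGR1 held 2 CArG boxes, at -105 to -96 and at -83 to -74 from the start, with an EGR site at -198 to -190 and 2 CRE cores. SRF, whose protein binds CArG boxes, also held 2 of them, at -30 to -21 and at -10 to -1, beside 1 EGR site, 1 ETS core and 1 CRE core, while the window of its downstream start had no match. At least 1 CArG box stood in 1.29% of the 35116 windows of this length, and 2 or more stood in 11 windows (0.0313%), of which EGR1 and SRF are 2. NR4A3 held 4 CRE cores, and 1.4% of windows held 3 or more. The remaining windows were plainer. IER2 had 1 CRE core and 1 ETS core, ELK1 had 1 CRE core, NR4A1 had 1 ETS core in one window and no match in the other, and neither the whole CRE TGACGTCA (1.85% of windows), which holds the core, nor the AP-1 site TGANTCA (7.71%) was matched in any of them. The EGR site stood in 9.43%, the ETS core in 17.2% and the CRE core in 24.6% of all windows. These matches are descriptions of the letters and not of binding. The bases ahead of the 2 NR4A1 starts lay at chr12:52022582-52022831 and chr12:52037465-52037714, in a gene running from 52022832 to 52059503. Any NR4A1 start further along was not covered.

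**Figure D1:**
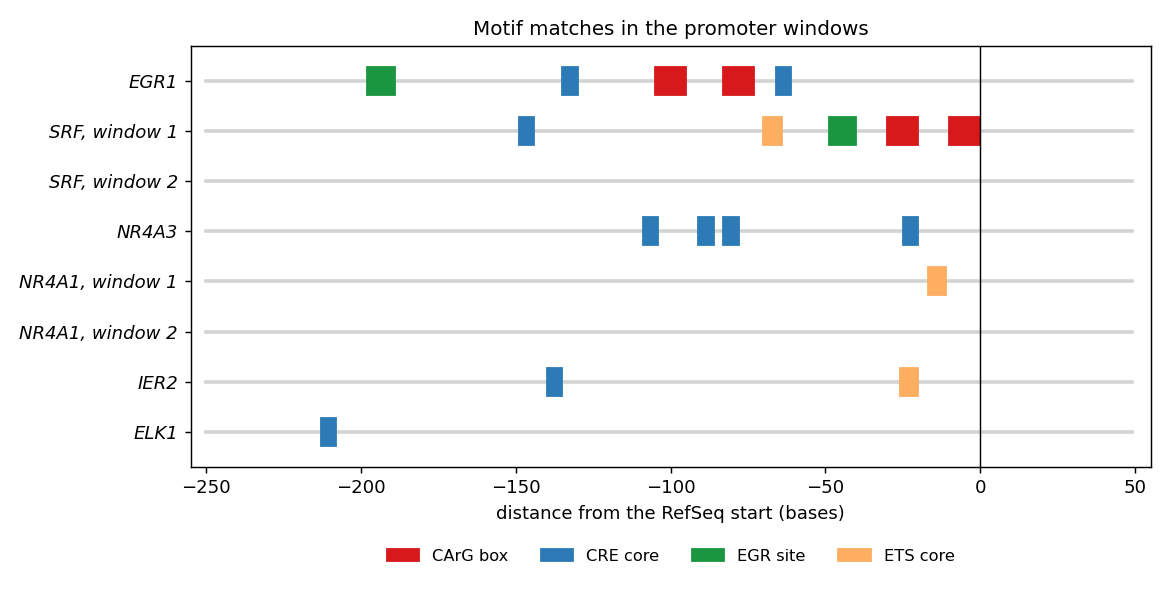
Motif matches in the 8 RefSeq promoter windows of 6 of the genes. The x axis is the distance from the RefSeq start in bases and each line is 1 window; boxes mark CArG boxes, CRE cores (TGACG), EGR sites (GCGNGGGCG) and ETS cores (CCGGAA) on either strand, and only EGR1 and the first SRF window carry 2 CArG boxes.

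LAPTM4B itself (feature 8147503) was lower on every siLAPTM4B array than on every siControl array, with log2 differences of -1.42 at 0% FBS (10.45, 10.50 and 10.54 in siLAPTM4B cells, against 11.94, 11.87 and 11.93 in siControl cells) and -1.75 at 10% FBS. Arrays correlated with each other at 0.989 or more, and their medians lay between 7.71 and 7.76. Of the genes listed for this cell line, KRT8 (12.8 to 13.0), KRT18 (12.1 to 12.3) and VIM (13.2 to 13.3) were high on all arrays, while KRT19 lay lower (7.91 to 8.25). KRT7 was lower with serum withdrawal (-1.90 in siLAPTM4B cells and -1.64 in siControl cells) and after knockdown at 0% FBS (-0.37), and EPCAM was higher with serum withdrawal (0.79 and 1.09) and after knockdown at 10% FBS (0.51). The mean of 5 leukocyte markers lay at 7.24 to 7.32 in siLAPTM4B 0% FBS, 7.19 to 7.23 in siControl 0% FBS, 7.39 to 7.48 in siLAPTM4B 10% FBS and 7.35 to 7.44 in siControl 10% FBS. PTPRC lay between 5.19 and 5.31 throughout, while CD68 lay far above the rest of the list, at 9.94 to 10.69. CD14 and CD68 were called lower with serum withdrawal. None of 4 endothelial markers was called (limma, with 1 higher for knockdown at 0% FBS, and 1 higher and 1 lower for serum withdrawal in siControl cells, under 0.05 without adjustment). Of 6 fibroblast markers, LUM and PDGFRB, the receptor of platelet-derived growth factor, were lower in all 4 comparisons between groups (-1.87 and -1.19 for serum withdrawal in siControl cells). COL1A1, COL1A2, COL3A1 and DCN were called in none of these (limma). Without adjustment 1 was higher under 0.05 for knockdown in each medium and for serum withdrawal in siControl cells. The list mean, with LUM and PDGFRB in it, moved with serum (7.12 to 7.20 and 7.28 to 7.32 in the starved siLAPTM4B and siControl groups, 7.66 to 7.74 and 7.80 to 7.87 in the groups with serum). The part of these markers in the results was not tested. All cultures were of 1 cell line. In RNA from whole cultures, fewer cells with a given transcript and less of it per cell cannot be told apart.

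More of the 10 genes were called for serum withdrawal than for LAPTM4B knockdown, and EGR1, NR4A3 and IER2 were called for both. In siControl cells, 7 of the 10 were higher at 0% FBS than at 10% FBS (13.2% of all tested features were called higher) and 1, ELK1, was lower (12.9% of features), with a median log2 difference of 0.25 over the 10 genes against -0.01 over all genes. In siLAPTM4B cells, 4 were higher (9.74% of features) and 1, IER3, was lower (11%), with a median of 0.08 against -0.01. EGR1, NR4A1, NR4A2 and IER2 were the genes called higher in both. In siControl cells 7 genes had every starved array above every array with serum (19.5% of features), and IER3 and ELK1 had every one below (21.6%). In siLAPTM4B cells 4 genes lay above without overlap (16.4%), and IER3 and SRF lay below (19.7%). The 2 serum comparisons use different arrays, but each shares its arrays with a knockdown comparison. A gene was called at a Benjamini-Hochberg adjusted p under 0.05 in limma, over all 19460 features with 1 symbol.

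Knockdown lowered 2 of the 10 genes at 0% FBS, EGR1 and NR4A3 (1.74% of features were called lower), and raised none (0.591%; limma, also none at an unadjusted p under 0.05). At 10% FBS it raised 1, IER2 (1.99% of features), and lowered none (2.09%; 1 gene, EGR1, had an unadjusted p under 0.05 in limma). The median log2 difference over the 10 genes was -0.13 at 0% FBS and -0.02 at 10% FBS, against 0.01 and 0.00 over all genes. At 0% FBS 9 of the 10 differences were negative, and in 5 genes, EGR1, NR4A1, NR4A2, NR4A3 and IER3, every siLAPTM4B array lay below every siControl array. This was so for 11.6% of all features, and 9.72% had every siLAPTM4B array above, as none of the 10 did. At 10% FBS IER2 was without overlap as higher (12.9% of features) and EGR1 as lower (11.6%). The difference between the knockdown effects in the 2 media was called as lower for EGR1 (0.19% of features) and for no other gene of the 10. None was called as higher (0.0719% of features, limma, also none at an unadjusted p under 0.05). Without adjustment 5 of the 10, EGR1 among them, were lower under 0.05 in limma, and 9 of the 10 differences were negative. With the methods' t-test and the same adjustment in place of limma, no gene of the 10 was called for knockdown in either medium or for the difference between media.

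**Figure D2:**
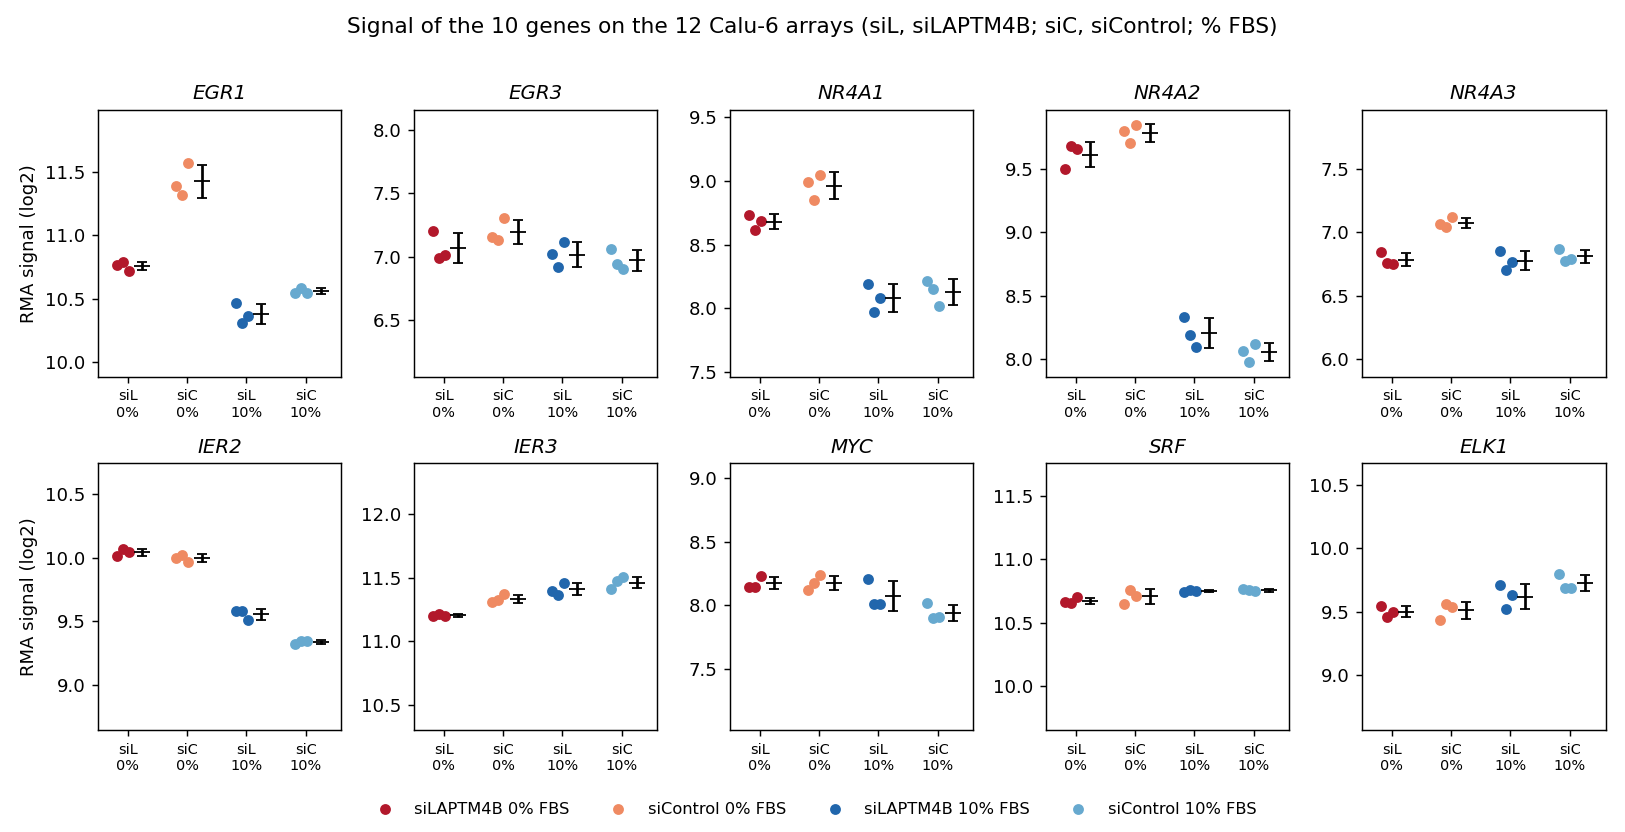
RMA signal (log2) of the 10 genes on the 12 arrays. The x axis gives the 4 groups with siLAPTM4B left of siControl and 0% FBS left of 10% FBS, dots show arrays, with the mean and SD of 3 arrays drawn next to them; every panel spans the same range of log2 units, and NR4A2, EGR1, NR4A1 and IER2 show the widest separation of the groups.

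The 2 EGR genes differed in how far they moved. EGR1 (feature 8108370), the zinc finger factor that is the family's best-known serum response gene, had signals of 10.77, 10.79 and 10.72 in siLAPTM4B 0% FBS, 11.39, 11.32 and 11.57 in siControl 0% FBS, 10.46, 10.31 and 10.36 in siLAPTM4B 10% FBS and 10.55, 10.59 and 10.54 in siControl 10% FBS. The 4 groups did not overlap anywhere, and starved siControl cells stood highest. EGR1 was lower after knockdown at 0% FBS, with a log2 difference of -0.67 (SE 0.0656, 95% interval -0.816 to -0.516, a fold of 0.63, adjusted p = 0.00262, limma), and at 10% FBS the difference was -0.18 (SE 0.053, adjusted p = 0.107, limma), which was called with an intensity trend and robust prior (0.0215). Serum withdrawal raised it by 0.38 in siLAPTM4B cells (SE 0.0559, adjusted p = 0.00109, limma) and by 0.86 in siControl cells (SE 0.0641, adjusted p = 3.54e-05, limma), which is 1.3-fold and 1.82-fold. The knockdown effect at 0% FBS minus that at 10% FBS was -0.48 (SE 0.0861, adjusted p = 0.0424, limma interaction over the 12 arrays). That last call ended when any array other than siControl 0% FBS replicate 2 was left out, with differences of -0.52 to -0.41 and adjusted p of 0.0576 to 0.103. The knockdown effect at 0% FBS, the serum effect in siControl cells and the interaction share the siControl 0% FBS arrays, so the 3 values are not independent of one another.

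EGR3 (feature 8149720), which binds the same GC-rich sites, was close to flat. Its signals were 7.21, 6.99 and 7.02 in siLAPTM4B 0% FBS, 7.16, 7.13 and 7.31 in siControl 0% FBS, 7.02, 6.92 and 7.11 in siLAPTM4B 10% FBS and 7.06, 6.95 and 6.91 in siControl 10% FBS. Neighbouring groups in the order of means overlapped throughout, and only the siControl groups separated by serum, with a difference of 0.23 (SE 0.0618, adjusted p = 0.0292, limma). This call was lost without siControl 0% FBS replicate 3 (0.17, adjusted p = 0.0868) and without siControl 10% FBS replicate 2 or 3 (adjusted p = 0.0943 and 0.0908), and also when all features of the table were tested (0.0726) or the methods' t-test was used (0.113). In siLAPTM4B cells the serum difference was 0.05 (95% interval -0.112 to 0.217), and the knockdown differences were -0.13 at 0% FBS and 0.05 at 10% FBS, with adjusted p of 0.47 and 0.791.

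The NR4A genes gave the widest serum difference of the 10. NR4A2 (feature 8055952), also called NURR1, had signals of 9.50, 9.68 and 9.65 in siLAPTM4B 0% FBS, 9.80, 9.70 and 9.85 in siControl 0% FBS, 8.34, 8.20 and 8.10 in siLAPTM4B 10% FBS and 8.06, 7.98 and 8.12 in siControl 10% FBS. All 6 starved arrays lay far above all 6 arrays with serum, and within each medium the siRNA groups were near each other. Serum withdrawal raised NR4A2 by 1.40 in siLAPTM4B cells (SE 0.0735, adjusted p = 1.59e-06, limma) and by 1.73 in siControl cells (SE 0.0549, adjusted p = 4.71e-07, limma), or 2.64-fold and 3.31-fold. The knockdown difference was -0.17 at 0% FBS (95% interval -0.312 to -0.029, adjusted p = 0.244, limma) and 0.15 at 10% FBS (-0.001 to 0.310, adjusted p = 0.276). The knockdown effects in the 2 media differed by -0.33 (SE 0.097, adjusted p = 0.228, limma), which did not pass the threshold.

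NR4A1 (feature 7955589), the receptor NUR77, followed serum in the same direction with a smaller step. Its signals were 8.74, 8.62 and 8.69 in siLAPTM4B 0% FBS, 8.99, 8.85 and 9.05 in siControl 0% FBS, 8.19, 7.97 and 8.08 in siLAPTM4B 10% FBS and 8.21, 8.15 and 8.01 in siControl 10% FBS. The siRNA groups overlapped at 10% FBS and were apart at 0% FBS. Serum withdrawal raised NR4A1 by 0.60 in siLAPTM4B cells (SE 0.0658, adjusted p = 0.000174, limma) and by 0.84 in siControl cells (SE 0.0693, adjusted p = 6.48e-05, limma). The knockdown difference at 0% FBS was -0.28 (SE 0.0617, adjusted p = 0.0567, limma), just outside the call, and it was called when a trend of the variance with intensity and a robust prior were used (adjusted p = 0.00927), when dim features were left out (0.0473) and when all 12 arrays entered 1 fit (0.0474). At 10% FBS it was -0.05 (95% interval -0.211 to 0.118).

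NR4A3 (feature 8156848), the receptor NOR1, was highest in starved siControl cells. It had 6.84, 6.76 and 6.75 in siLAPTM4B 0% FBS, 7.07, 7.04 and 7.12 in siControl 0% FBS, 6.85, 6.71 and 6.77 in siLAPTM4B 10% FBS and 6.87, 6.77 and 6.79 in siControl 10% FBS. The siControl 0% FBS arrays lay above the other 9, and the remaining groups overlapped. Knockdown lowered it at 0% FBS (-0.29, SE 0.0469, a fold of 0.816, adjusted p = 0.0182, limma) and serum withdrawal raised it by 0.27 in siControl cells (SE 0.0446, adjusted p = 0.00298, limma), both involving the same 3 siControl 0% FBS arrays. The knockdown call was lost without any 1 of 5 of the 6 arrays, all but siLAPTM4B 0% FBS replicate 1, at adjusted p of 0.0585 to 0.0939, and when all features of the table were tested (0.0756). In siLAPTM4B cells the serum difference was 0.01 (95% interval -0.119 to 0.135, adjusted p = 0.951, limma), and the difference between the media in the knockdown effect, -0.26, had an adjusted p of 0.178.

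IER2 (feature 8026163), a nuclear immediate early protein, had 10.02, 10.07 and 10.05 in siLAPTM4B 0% FBS, 10.00, 10.03 and 9.97 in siControl 0% FBS, 9.58, 9.59 and 9.51 in siLAPTM4B 10% FBS and 9.32, 9.35 and 9.35 in siControl 10% FBS. Its siRNA groups overlapped in starved cells and were apart with serum, where the siLAPTM4B arrays were the higher ones. Serum withdrawal raised IER2 by 0.49 in siLAPTM4B cells (SE 0.049, adjusted p = 0.000101, limma) and by 0.66 in siControl cells (SE 0.0388, adjusted p = 9.7e-06, limma). Knockdown raised it by 0.22 at 10% FBS (SE 0.0454, adjusted p = 0.0349, limma), against a difference of 0.04 at 0% FBS (95% interval -0.052 to 0.141, adjusted p = 0.704). The call at 10% FBS was lost whichever of the 6 arrays was left out (adjusted p of 0.0721 to 0.139) and when all features of the table were tested (0.0928). The difference of the knockdown effects between the media was -0.17 (SE 0.0547, adjusted p = 0.257, limma).

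IER3 (feature 8178435), also called IEX-1, moved the other way with serum. Its signals were 11.20, 11.21 and 11.20 in siLAPTM4B 0% FBS, 11.30, 11.32 and 11.37 in siControl 0% FBS, 11.40, 11.37 and 11.46 in siLAPTM4B 10% FBS and 11.41, 11.47 and 11.50 in siControl 10% FBS. The starved siLAPTM4B arrays were the lowest and overlapped with no other group. Serum withdrawal lowered IER3 in siLAPTM4B cells (-0.20, SE 0.0486, adjusted p = 0.0155, limma), a call lost without siLAPTM4B 0% FBS replicate 2 or 3 (adjusted p = 0.0558 and 0.0512) or siLAPTM4B 10% FBS replicate 3 (0.0649). In siControl cells the difference was -0.13 (SE 0.0432, adjusted p = 0.0612, limma), with 0.0495 when the replicate number was a block, 0.00662 to 0.0475 under 4 other settings and 0.021 for both other features of the gene, where it was -0.17. After knockdown at 0% FBS the difference was also -0.13 (adjusted p = 0.18, and 0.0223 with the intensity trend and robust prior), and at 10% FBS it was -0.05 (adjusted p = 0.642).

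MYC (feature 8148317), the growth regulator, had 8.14, 8.15 and 8.23 in siLAPTM4B 0% FBS, 8.12, 8.17 and 8.24 in siControl 0% FBS, 8.21, 8.01 and 8.01 in siLAPTM4B 10% FBS and 8.01, 7.90 and 7.90 in siControl 10% FBS. Starved cells gave the same mean with either siRNA to within 0.01 log2 units, and the lowest group was siControl 10% FBS. Serum withdrawal raised MYC by 0.24 in siControl cells (SE 0.0508, a fold of 1.18, adjusted p = 0.00982, limma), and in siLAPTM4B cells the difference was 0.10 (95% interval -0.048 to 0.246, adjusted p = 0.358). The knockdown difference was -0.0035 at 0% FBS (95% interval -0.116 to 0.109) and 0.14 at 10% FBS (-0.016 to 0.287, adjusted p = 0.333), and siLAPTM4B 10% FBS replicate 1 lay well above the remaining arrays of its group.

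SRF and ELK1, the factors known to act at serum response elements, had narrow ranges. SRF (feature 8119712) had 10.66, 10.65 and 10.70 in siLAPTM4B 0% FBS, 10.64, 10.76 and 10.71 in siControl 0% FBS, 10.74, 10.76 and 10.75 in siLAPTM4B 10% FBS and 10.76, 10.76 and 10.75 in siControl 10% FBS. Its group means spanned 0.08 log2 units and limma called it in no comparison, with 95% intervals of -0.141 to 0.072 for knockdown at 0% FBS, -0.101 to 0.090 at 10% FBS, -0.181 to 0.027 for serum withdrawal in siLAPTM4B cells and -0.148 to 0.052 in siControl cells. In siLAPTM4B cells all starved arrays lay below those with serum (-0.08), and the methods' t-test with Benjamini-Hochberg adjustment called that difference (adjusted p = 0.0436). ELK1 (feature 8172345) had 9.55, 9.46 and 9.50 in siLAPTM4B 0% FBS, 9.44, 9.56 and 9.54 in siControl 0% FBS, 9.71, 9.52 and 9.63 in siLAPTM4B 10% FBS and 9.80, 9.69 and 9.69 in siControl 10% FBS. It was highest in siControl 10% FBS, and serum withdrawal lowered it in siControl cells (-0.21, SE 0.0521, adjusted p = 0.0179, limma), a call lost without siControl 0% FBS replicate 1 (adjusted p = 0.0502) and with the methods' t-test (0.0669). In siLAPTM4B cells the serum difference was -0.12 (adjusted p = 0.231), and the knockdown differences were -0.01 at 0% FBS and -0.11 at 10% FBS (adjusted p = 0.966 and 0.428).

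**Figure D3:**
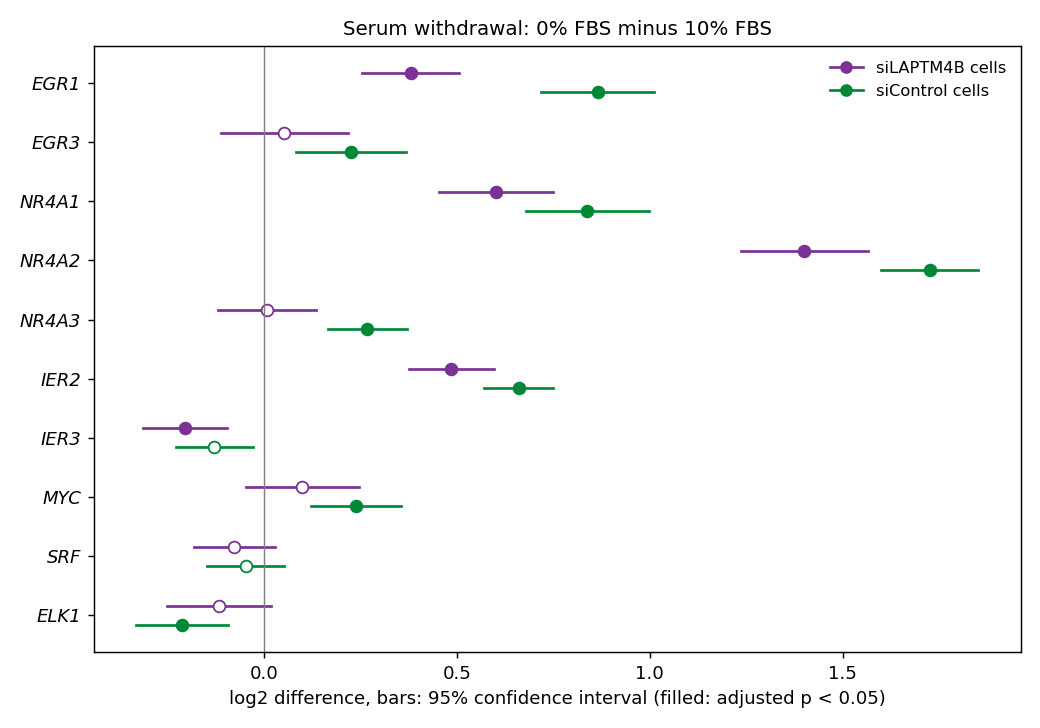
Serum withdrawal, 0% FBS minus 10% FBS, for the 10 genes in siLAPTM4B cells (upper line of each pair) and siControl cells (lower line). The x axis is the log2 difference, bars are 95% confidence intervals from limma and filled points are genes that were called; NR4A2 lies furthest right, at 1.40 and 1.73.

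**Figure D4:**
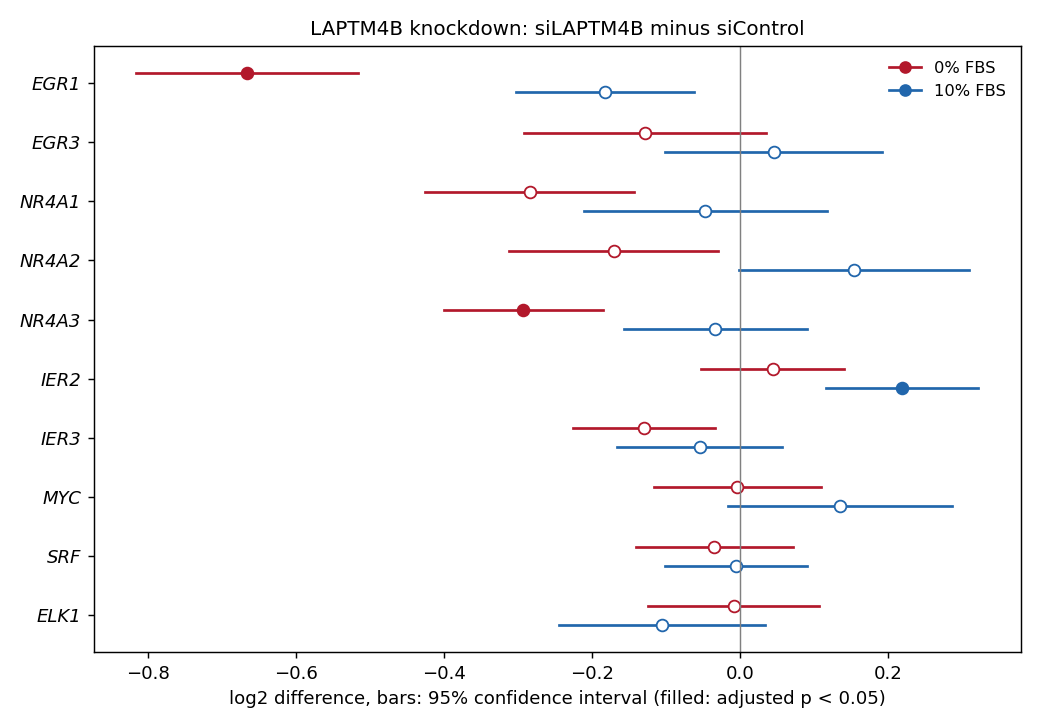
LAPTM4B knockdown, siLAPTM4B minus siControl, for the 10 genes at 0% FBS (upper line of each pair) and 10% FBS (lower line). The x axis is the log2 difference, bars are 95% confidence intervals from limma and filled points are genes that were called; EGR1 and NR4A3 at 0% FBS and IER2 at 10% FBS are the filled points.

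Over the 12 arrays several of the genes varied together. Pearson's r was 0.953 between NR4A1 and NR4A2, 0.968 between NR4A2 and IER2, 0.915 between EGR1 and NR4A1 and 0.91 between EGR1 and NR4A3, and it was -0.871 between IER2 and IER3. These values are descriptions over 12 arrays that share 4 group means. On siControl 0% FBS replicate 3, 7 of the 10 genes (EGR1, EGR3, NR4A1, NR4A2, NR4A3, IER3 and MYC) had the highest signal of the 3 arrays of that group, and IER2 had the lowest. Replicate 2 of that group was lowest for 5, the EGR and NR4A genes. Other groups had such arrays too. siLAPTM4B 10% FBS replicate 2 was lowest for 7 genes, and replicate 1 was highest for 6 in both groups with serum. Without siControl 0% FBS replicate 3 the knockdown difference of EGR1 at 0% FBS was -0.59 and its serum difference in siControl cells was 0.79, both still called.

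For the 4 members whose group means spanned at least 0.5 log2 units, the most similar genes were found by Pearson's r over the 12 arrays. The 1311 candidates were genes whose group means also spanned at least 0.5. EGR1 was followed by SEL1L3 (0.971), HMOX1 (0.97), the heme oxygenase that breaks down heme, and PAPPA (0.969), a protease that cleaves insulin-like growth factor binding proteins. The means of HMOX1 were 8.81 in siLAPTM4B 0% FBS, 9.77 in siControl 0% FBS, 8.04 in siLAPTM4B 10% FBS and 8.23 in siControl 10% FBS, the same order of starved siControl cells first and starved siLAPTM4B cells next as in EGR1. NR4A1 was followed by BMP2 (0.989), a bone morphogenetic protein, CHST11 and CAMK1D (0.988 each). NR4A2 was followed by NEDD9 (0.997), a focal adhesion scaffold, ABCG1 (0.996), a cholesterol exporter, and the histone deacetylase HDAC9 (0.995). IER2 was followed by AFDN (0.997), an adherens junction protein, PDGFA (0.996), a growth factor chain, and AHNAK2 (0.995). PDGFA means were 11.34 in siLAPTM4B 0% FBS, 11.29 in siControl 0% FBS, 10.64 in siLAPTM4B 10% FBS and 10.41 in siControl 10% FBS. This has the order of the IER2 means. HMOX1 and PDGFA were picked by correlation over these same arrays, so a shared order of means was largely given by the choice.

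The related immediate early genes were described by lists written from general knowledge, but with earlier results of these data known. Their counts stand against the shares of all features called with serum withdrawal, 9.74% higher and 11% lower in siLAPTM4B cells and 13.2% higher and 12.9% lower in siControl cells. For knockdown these shares were 0.591% higher and 1.74% lower at 0% FBS and 1.99% higher and 2.09% lower at 10% FBS. Of the 8 AP-1 subunits and ATF3, 6 rose with serum withdrawal in siLAPTM4B cells and 6 rose and 1 fell in siControl cells. FOS had 9.11, 9.10 and 9.21 in siLAPTM4B 0% FBS, 9.70, 9.61 and 9.97 in siControl 0% FBS, 8.43, 8.25 and 8.36 in siLAPTM4B 10% FBS and 7.92, 8.09 and 8.18 in siControl 10% FBS. Its siRNA groups were thus apart in both media, in opposite directions. FOS rose with serum withdrawal by 0.79 in siLAPTM4B cells and by 1.70 in siControl cells (adjusted p = 1.65e-05 and 9.79e-06, limma), and JUN rose by 0.71 and 1.15, while FOSL1 fell in siControl cells (-0.24). Knockdown at 0% FBS lowered FOS (-0.62, adjusted p = 0.0108) and FOSL2 (-0.31, adjusted p = 0.00967) and called no other AP-1 gene, and at 10% FBS none was called (limma; without adjustment 2 were higher and 2 lower under 0.05). The median log2 difference of this list was -0.16 for knockdown at 0% FBS, and 0.31 and 0.46 for serum withdrawal in siLAPTM4B and siControl cells.

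A further list held phosphatases, regulators of RNA decay and translation, and other immediate early genes such as kinases. Of its 17 measured genes, 11 rose and 2 fell with serum withdrawal in siLAPTM4B cells, and 13 rose and 2 fell in siControl cells. DUSP1, a phosphatase that switches off MAP kinases, rose by 0.71 in siLAPTM4B cells and by 0.99 in siControl cells, and ZFP36, which speeds the decay of AU-rich mRNAs, rose by 0.59 and 0.88. SGK1, a serum- and glucocorticoid-regulated kinase, went the other way (-1.18 in siLAPTM4B cells and -0.96 in siControl cells). Knockdown at 0% FBS lowered SGK1 (-0.29, adjusted p = 0.012) and DUSP5 (-0.27, adjusted p = 0.0253), a phosphatase specific for ERK, and at 10% FBS it raised TRIB1 (0.28, adjusted p = 0.0366). Of 10 further immediate early transcription factors that were measured, 5 rose with serum withdrawal in siLAPTM4B cells and 4 in siControl cells. KLF5 led in both (0.86 and 0.94). Knockdown called none of the 10 in either medium (limma, with 1 lower under 0.05 in each without adjustment). EGR2, also on that list, had no feature with its symbol alone and was not measured. The paper lists EGR2 as lower after knockdown in serum-starved cells.

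The 11 measured secreted products were mixed. With serum withdrawal 2 rose and 5 fell in either siRNA group. PTGS2, the inducible cyclooxygenase that was listed with them, had 8.82, 8.99 and 9.13 in siLAPTM4B 0% FBS, 10.19, 10.06 and 10.31 in siControl 0% FBS, 10.84, 10.88 and 10.83 in siLAPTM4B 10% FBS and 11.48, 11.58 and 11.57 in siControl 10% FBS. The 4 groups did not overlap, and PTGS2 was higher with serum than without, the reverse of EGR1 in the direction of the serum change alone. It was lower after knockdown at 0% FBS (-1.21, adjusted p = 0.000863) and at 10% FBS (-0.69, adjusted p = 0.000463), and lower after serum withdrawal in siLAPTM4B (-1.87) and siControl cells (-1.36). CCN2, a matricellular protein, also fell with serum withdrawal (-0.97 in siLAPTM4B cells and -0.88 in siControl cells), whereas HBEGF, an EGF receptor ligand, rose by 0.54 and 0.62. Knockdown also lowered THBS1 in both media (-0.34 at 0% FBS and -0.57 at 10% FBS), and at 10% FBS it raised the chemokines CXCL8 (0.51) and CXCL1 (0.30). AREG, also on this list, had no feature with its symbol alone and was not measured. The paper lists AREG as lower after knockdown in serum-starved cells.

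Genes that the EGR, SRF, MYC and NR4A proteins work with or act on were counted in the same way. NAB1 and NAB2, the corepressors of the EGR proteins, both rose with serum withdrawal, NAB1 by 0.83 in siLAPTM4B cells and 0.75 in siControl cells and NAB2 by 0.29 and 0.34. Of the other two genes of that list, WT1 and SP1, whose proteins bind similar GC-rich sites, WT1 fell with serum withdrawal in siLAPTM4B cells (-0.18, adjusted p = 0.041) and SP1 was not called. Knockdown called none of the 4 (limma; without adjustment NAB2 was lower under 0.05 at 0% FBS). Of 8 measured EGR1 targets, a list that also holds NAB2, 3 rose and 1 fell with serum withdrawal in either siRNA group, led by PDGFA (0.70 in siLAPTM4B cells and 0.88 in siControl cells) and with F3, the tissue factor gene, as the one that fell. Knockdown at 0% FBS, where EGR1 was lower, called none of the 8 (limma; without adjustment 2 were higher and 1 lower under 0.05), and at 10% FBS it called PDGFA alone, as higher (0.23, adjusted p = 0.0224). Of 5 SRF partners 1, MRTFB, was lower after serum withdrawal in siLAPTM4B cells (-0.23). The 13 measured SRF targets of the actin cytoskeleton were divided, with 2 rising and 3 falling with serum withdrawal in siLAPTM4B cells and 2 rising and 4 falling in siControl cells. The 2 that rose are close to the shares of all features (9.74% and 13.2%). ACTG2, an actin of smooth muscle, rose by 0.30 in siLAPTM4B cells and by 0.76 in siControl cells and was lower after knockdown in both media (-0.84 at 0% FBS and -0.38 at 10% FBS), while FHL2, a LIM domain cofactor, fell with serum withdrawal (-0.45 and -0.72).

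MYC rose in starved siControl cells, and 4 of its 10 partners and antagonists rose with it there, led by the antagonist MXD1 (0.81, adjusted p = 4.75e-05), which rose by 0.61 in siLAPTM4B cells and was lower after knockdown at 0% FBS (-0.30, adjusted p = 0.0258). Of 19 measured MYC targets of ribosome and nucleotide synthesis none rose with serum withdrawal (limma; also none at an unadjusted p under 0.05), whereas 4 fell in siLAPTM4B cells and 5 in siControl cells, among them SRM, the spermidine synthase (-0.32 and -0.37). The NR4A partner RXRA, a retinoid X receptor that pairs with NR4A1 and NR4A2, rose with serum withdrawal by 0.37 in siLAPTM4B cells and 0.24 in siControl cells and was lower after knockdown at 10% FBS (-0.23, adjusted p = 0.0265). The other 3 NR4A partners were not called in any comparison.

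**Figure D5:**
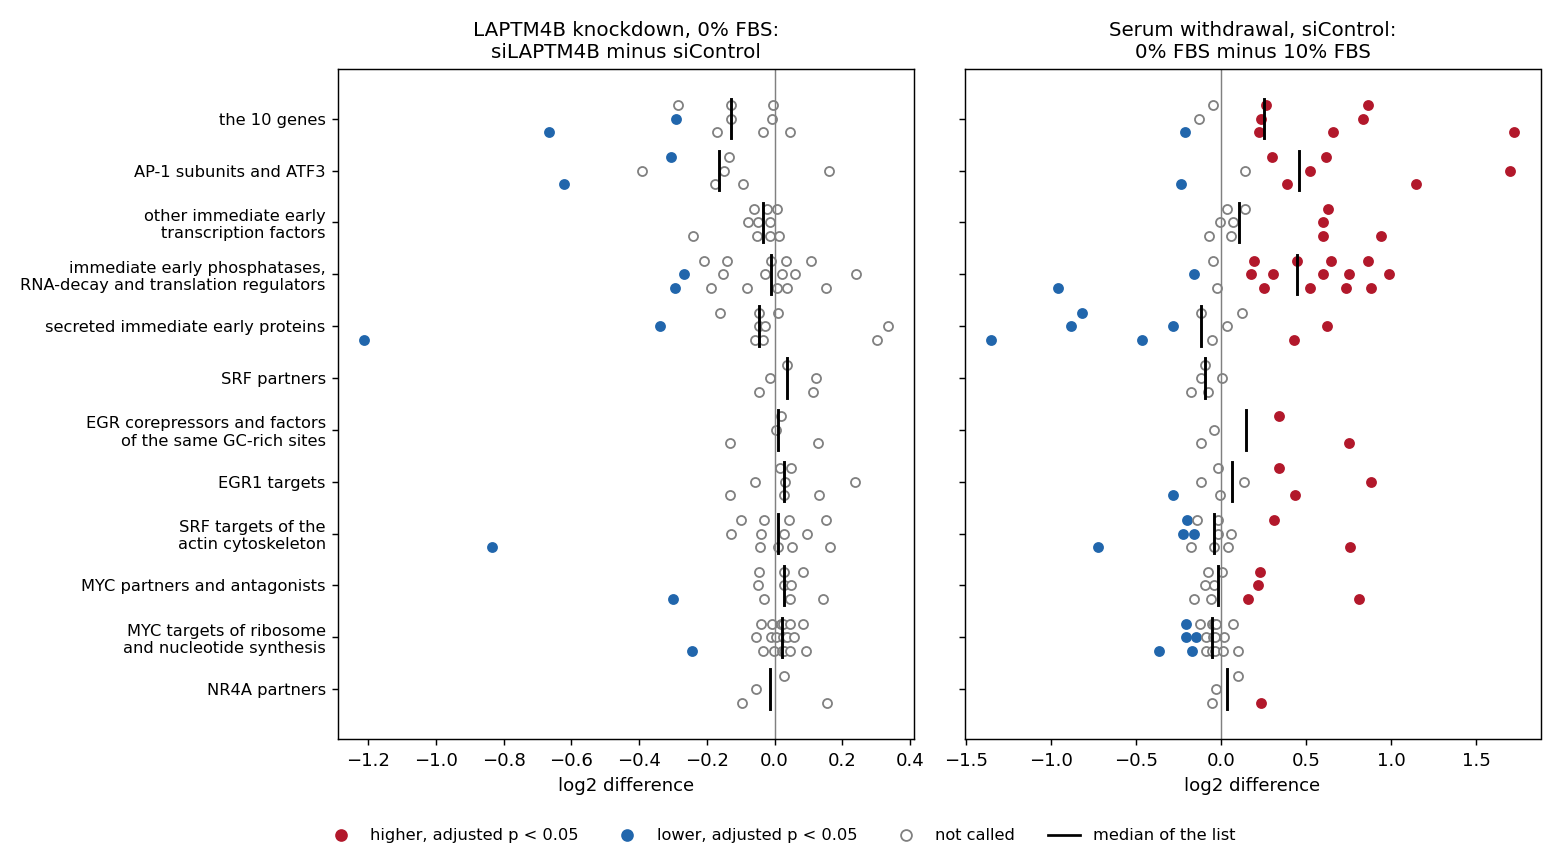
Log2 differences of the 10 genes and of the 11 lists for LAPTM4B knockdown at 0% FBS (left panel, siLAPTM4B minus siControl) and for serum withdrawal in siControl cells (right panel, 0% FBS minus 10% FBS). Each point is 1 gene on the x axis, filled where it was called, and the black bar is the median of the list; the x axes differ in range. EGR1, FOS, PTGS2 and ACTG2 are the points furthest left in their rows of the left panel.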

How the data were processed

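Total RNA of the 12 Calu-6 samples was hybridized to Affymetrix Human Gene 1.0 ST arrays. The authors normalized the arrays by RMA (background correction, quantile normalization and a summary over probes) in BRB-ArrayTools v 4.3.0, and the deposited values are log2 signals. Probe-level files were not used here. Quantile normalization fixes the distribution of each array, so a shift of most genes together would not be seen.

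Groups were taken from the labels. The 6 arrays of each comparison were fitted with limma 3.58.1 (R 4.3.3; lmFit and eBayes), and the interaction over all 12. Benjamini-Hochberg adjustment ran across the 19460 features with 1 symbol, with calls under 0.05. The p-values measure the spread between the replicates, whatever their kind. In an exact permutation test over 3 arrays against 3 the smallest two-sided p is 0.1. Leaving out arrays, a replicate block, other priors, filters, features, centring and tests were alternatives, among them Student's t-test, which the methods name in general. The fit was tested on simulated data. The members, the lists and the tests were chosen with earlier results of these data known. Genes named besides the members are LAPTM4B, up to 2 called genes per list, direction and comparison with the largest change, markers, and the 3 most similar genes of members whose group means spanned at least 0.5 log2 units. Deviations from group means of same-numbered arrays correlated at 0.366, 0.13 and 0.2 between siControl 0% FBS and siControl 10% FBS. This is a hint of pairing from the data and not from the labels. The correlations were 0.483, 0.177 and 0.345 between siLAPTM4B 0% FBS and siControl 10% FBS, which were not compared directly. The main fits used no pairing, and the replicate block was an alternative only. Sequences are from RefSeq (GRCh38.p14). Figures were drawn with matplotlib 3.10.9.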

Additional observations from a re-analysis of the deposited data

Results flagged for a closer look

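The knockdown effect differed between the media for 3 genes among those named. For EGR1 the effect at 0% FBS minus that at 10% FBS was -0.48 on the log2 scale (adjusted p = 0.0424, limma interaction), since EGR1 was lower by 0.67 in starved siLAPTM4B cells and by 0.18 in siLAPTM4B cells with serum. For FOS the same difference was -0.91 (SE 0.126, adjusted p = 0.00959), and here the 2 effects had opposite signs, -0.62 at 0% FBS (called) and 0.28 at 10% FBS (adjusted p = 0.0836, not called), with no overlap of the siRNA groups in either medium. For LAPTM4B the difference was 0.33 (SE 0.0565, adjusted p = 0.0345), with a level higher at 0% FBS than at 10% FBS by 0.48 in siLAPTM4B cells and by 0.15 in siControl cells. The depth of the knockdown was thus not the same in the 2 media, and its part in the EGR1 and FOS values was not tested.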

How the results depend on the processing

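Taking the log2 difference of each of the 10 genes in each comparison under each alternative that kept all arrays, 369 values kept their direction and side of the threshold, 11 lost a call, 19 gained one and 1 turned its sign. With 1 array left out, 318 kept both, 29 lost a call, 1 gained one and 12 turned their sign. Features called for knockdown at 0% FBS, 454, became 1126 with an intensity trend and robust prior, 134 with all features tested, 687 with 1 fit of all arrays, 27 with the methods' t-test and Benjamini-Hochberg adjustment, and 1291 at an unadjusted p under 0.01. Members called there, 2, became 4, 1 and 0 with the trend, with all features and with the t-test. Features called for knockdown at 10% FBS, 793, became 1686, 279, 1370, 177 and 1574 under the same 5 settings, and members, 1, became 2 with the trend, 0 with all features, 0 with the t-test, 2 at an unadjusted p under 0.01 and 0 with the replicate block. For the interaction, 51 features became 84 with the replicate block, 163 with the trend, 81 without dim features, 17 with all features, 27 with the t-test and 682 at an unadjusted p under 0.01, and members, 1, became 0 with all features, 0 with the t-test and 4 at an unadjusted p under 0.01. Leaving out 1 array gave 118 to 290 features and 1 to 2 members for knockdown at 0% FBS, 228 to 482 and 0 members in every case at 10% FBS, 3632 to 4478 and 7 to 9 for serum withdrawal in siControl cells, 2713 to 3432 and 4 to 5 in siLAPTM4B cells, and 19 to 51 and 0 to 1 for the interaction. Both knockdown counts of features thus fell by over 1.5 times whichever array was left out. The fewest features remained without siLAPTM4B 0% FBS replicate 2 for knockdown at 0% FBS, without siControl 10% FBS replicate 2 at 10% FBS and without siLAPTM4B 0% FBS replicate 1 for the interaction.

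Signs turned for values near 0. With arrays centred on their medians it was MYC for knockdown at 0% FBS (0.0034). With 1 array left out the values ranged from -0.0314 to 0.0263 for MYC and from -0.0456 to 0.0167 for ELK1 in that comparison, from -0.1031 to 0.0086 for NR4A1, from -0.0723 to 0.0021 for NR4A3 and from -0.0022 to 0.0938 for EGR3 in knockdown at 10% FBS, and from -0.0154 to 0.1002 for EGR3 and from -0.0272 to 0.0472 for NR4A3 in serum withdrawal in siLAPTM4B cells. Same-numbered arrays correlated at 0.387, 0.0694 and 0.184 for knockdown at 0% FBS and at 0.368, 0.153 and -0.0795 at 10% FBS. Between the siLAPTM4B media they correlated at 0.316, 0.131 and -0.167. Neither these values nor the labels settle whether the numbers pair the arrays. With the replicate block NR4A1 was called for knockdown at 0% FBS (adjusted p = 0.0219), IER2 at 10% FBS was not (0.051), IER3 was called for serum withdrawal in siControl cells (0.0495), and no other call of a member changed. The cause of these changes was not tested. All 10 genes lay above the lower quartile of all features on every array, so none was left out by the filter on dim features.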
